A study of Thermothelomyces thermophilus with 4 samples.

Results

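The genes described here are the 240 gene models of the thermophilic fungus Myceliophthora thermophila (Thermothelomyces thermophilus) whose transcripts were more abundant on canola straw than on oat, triticale and flax straw by a factor of at least 2. They were chosen by the measured expression values themselves (FPKM, reads scaled to the length of the gene model and to the reads assigned in the library): the mean over the 4 straws had to be at least 1 FPKM, and canola + 1 had to be at least 2 times the highest of the other 3 straws + 1. Of the 9110 models listed, 8230 passed the filter on the mean, and the 240 genes are 2.92% of these. All 240 met the filter because the rule includes it, and no gene with a lower mean would have met the 2-fold condition. The height of these genes on canola is therefore how they were selected and not a finding, and no test was made of it.

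Mycelium was grown from spores in shaken Trametes Defined Medium with 2% straw as the carbon source at 45 °C, and poly(A) RNA was sequenced from 1 library per straw. The oat, triticale and flax cultures were harvested at 24 h and the canola culture at 30 h. Any difference between canola and the other straws is thus one of straw and of time together, and the effects of these cannot be told apart. There is no replicate culture, so every comparison is between single libraries. Intervals in parentheses are 95% counting intervals, which cover counting error only and not the spread between cultures. In these bulk cultures a change in RNA per cell and a change in the number of cells of one kind cannot be told apart.

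Filamentous fungi that live on plant litter secrete enzymes that cut cell wall polymers and take up the released sugars. Oat and triticale are grasses, and canola and flax are dicots, whose cell walls generally hold more pectin. Straw also carries small amounts of starch, which glucoamylases degrade by releasing glucose from the chain ends. In filamentous fungi the genes of one metabolic pathway often lie side by side in the genome. Apart from 1 gene symbol, the gene table used here names no product for the 240 genes, so they are described by level, profile, length and place in gene order, and no role is given for those without a symbol.

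Reads assigned to genes numbered 7977329 on canola, 7955444 on flax, 7308467 on oat and 6495371 on triticale. The median FPKM over all tested genes was 22.2 on canola, 21.5 on oat, 21.8 on flax and 16.6 on triticale. Relative to the mean of the 4 libraries, the median gene stood at -0.14 on the log2(FPKM + 1) scale on triticale and at 0.05 to 0.08 on the other straws. Values on triticale should be read against that shift. At the members' median length, 3 reads, the one-sided limit used here for a count of 0, correspond to 0.220 to 0.270 FPKM.

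Together the 240 genes took 6.27% of the reads on canola, against 1.32% to 1.54% on each other straw. Their levels on canola spanned a wide range, from 3.13 to 3845 FPKM with a median of 45.0. Of the 240, 33 were under 10 FPKM on canola, 133 between 10 and 100, 68 between 100 and 1000, and 6 at 1000 or more. The median was 7.30 FPKM on triticale, 12.2 on oat and 12.7 on flax. The 10 members with the most reads held 37.6% of all member reads on canola. Among the 100 models with the highest FPKM on canola 11 were members, where members are 2.92% of all tested genes. The rule uses the canola value, so this count describes the set and is not a finding.

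**Figure D1:**
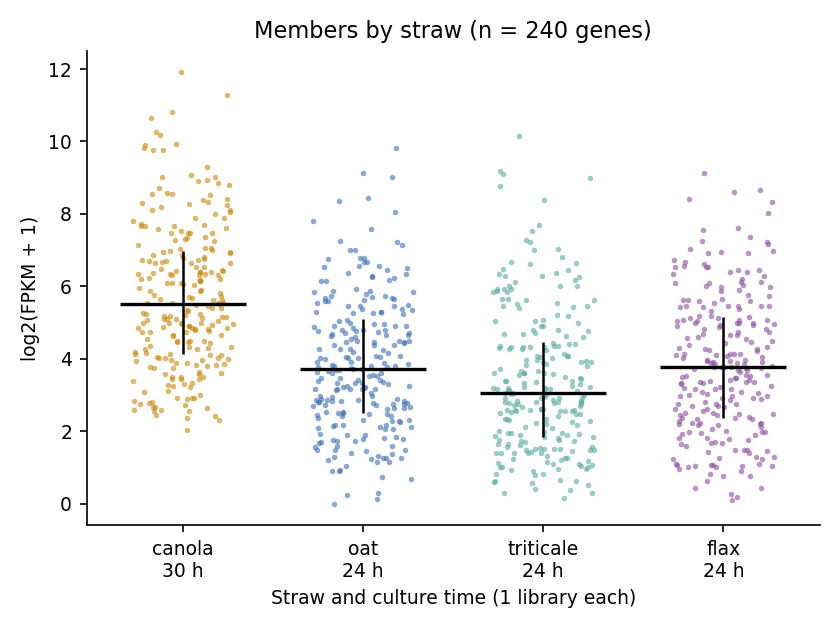
Level of each of the 240 genes by straw, as log2(FPKM + 1), with 1 library per straw. Each point is a gene, horizontal bars are medians and vertical bars run from the lower to the upper quartile. The canola median corresponds to 45.0 FPKM and the others to 7.30 to 12.7 FPKM, which the choice of genes fixes.

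The ratio of canola to the next straw, meaning the highest of the other 3, had a median of 2.74 in FPKM (quartiles 2.33 and 3.46), and 153 of the 240 were under 3-fold. Over all 8230 tested genes the same ratio had a median of 0.821, and 2410 genes (29.3%) were highest on canola. A ratio of 4 or more was found for 44 members and of 8 or more for 9. The lower end of the counting interval of the ratio was at least 2 for 158 members and above 1 for 237. The other 3 genes, MYCTH_2067387, MYCTH_2055988 and MYCTH_2032045, rest on 6, 14 and 12 canola reads. With the oat library left out the rule gave 387 genes and with flax left out 519, since 1 straw fewer had to be cleared. Without triticale it gave 275. For a single gene, leaving out its next straw can only raise the ratio, to that with the following straw.

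The genes nearest to the threshold differed little across it. Just inside were MYCTH_2297131 (13.2 FPKM on canola and 6.09 on oat), MYCTH_2297084 (36.7 and 17.8 on oat) and MYCTH_2304268 (34.4 and 16.7 on flax), with ratios of FPKM + 1 of 2.001, 2.006 and 2.007. Just outside were MYCTH_2314374 (73.8 FPKM on canola and 36.5 on oat), MYCTH_2300559 (17.2 and 8.14 on oat) and MYCTH_2057433 (125 and 62.3 on flax), with ratios of 1.993, 1.993 and 1.990. Leaving out the next straw raised each ratio of FPKM, least for MYCTH_2297084 and MYCTH_2057433, which had 2.06 and 2.01 before. MYCTH_2297131 had only 11 reads on oat and 8 on flax. Without oat the ratio of FPKM was 3.24 for MYCTH_2297131, 2.31 for MYCTH_2297084, 4.73 for MYCTH_2314374 and 3.09 for MYCTH_2300559. Without flax it was 5.56 for MYCTH_2304268 and 2.32 for MYCTH_2057433.

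**Figure D2:**
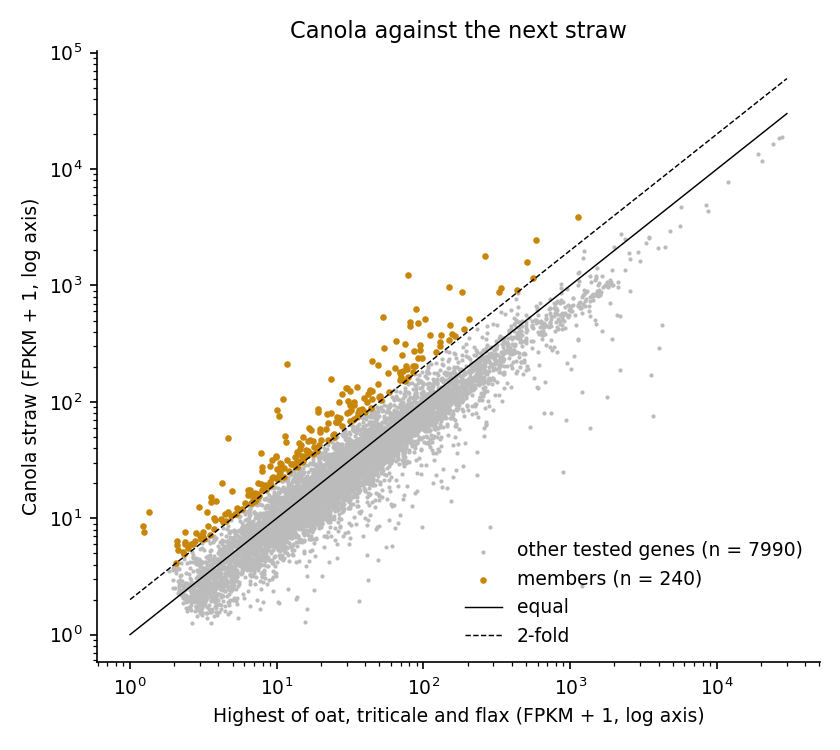
FPKM + 1 on canola straw against the highest of oat, triticale and flax, both on log axes, for the 8230 tested genes. The solid line marks equal values and the dashed line the 2-fold rule. The 240 members lie on or above the dashed line at all levels from a few FPKM to 3845 FPKM on canola.

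The 1 member with a symbol was gla1, which encodes glucoamylase, an enzyme that releases glucose from starch. Its transcript was at 20.3 FPKM on triticale, 22.7 on flax, 36.9 on oat and 83.7 on canola (79.6 to 87.9). The ratio of canola to oat, the next straw, was 2.27 (2.07 to 2.49). Flax and triticale were close to each other and below oat. With the oat library left out the ratio to the next straw was 3.68, and with a pseudocount of 10 the ratio of gla1 was 1.995, just under 2.

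The other 5 genes with a symbol were not members. The nearest was ganA, an endo-galactanase that cuts pectic galactan, at 275 FPKM on canola, 142 on oat, 131 on triticale and 91.5 on flax. Its ratio of canola to oat was 1.93 (1.80 to 2.07), so the counting interval reaches past 2. Oat and triticale were close to each other for ganA, and flax was lowest. The gene cbdA was highest on oat, at 807 FPKM against 267 on canola. On flax, cat1 had 135 FPKM against 25.6 on canola, and phy1 11.9 against 8.76, each its highest value. The gene lcc1 had at most 0.205 FPKM, from 4 reads on canola.

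Among members with at least 10 FPKM on canola, the 10 highest ratios belonged to genes of different level on the other straws, from near the detection limit to 87.3 FPKM. Model 2303056, to which no locus tag corresponded, had 10.3 FPKM on canola from 121 reads, and 0.0926 on oat, 0.313 on triticale and 0.340 on flax from 1, 3 and 4 reads. Its ratio to flax was 30.2, with a counting interval as wide as 11.5 to 113. For so low a gene the size depends on the pseudocount: the ratio was 8.40 on the scale of FPKM + 1 and 1.96 with a pseudocount of 10. MYCTH_64095 was measured far more precisely, with 211 FPKM on canola (205 to 217), 10.7 on flax, 2.47 on oat and 0.960 on triticale. Its ratio to flax was 19.7 (17.4 to 22.4), and the other straws stood in the order flax, oat, triticale.

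MYCTH_110028 combined a high ratio with a high level. It had 1219 FPKM on canola (1200 to 1238), 77.6 on triticale, 57.7 on oat and 42.9 on flax. The ratio to triticale was 15.7 (14.7 to 16.9), and the 3 other straws lay within 1.81-fold of each other. MYCTH_2306267 was similarly even on the other straws, with 540 FPKM on canola, 52.2 on oat, 48.3 on flax and 41.6 on triticale. Its ratio to oat was 10.4 (9.50 to 11.3).

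A further set of genes in the same ranking shared the order canola, flax, oat, triticale. MYCTH_2019397 had 48.0 FPKM on canola, 3.69 on flax, 2.34 on oat and 0.753 on triticale. MYCTH_39035 had 105 FPKM on canola, 10.1 on flax, 5.14 on oat and 1.07 on triticale. MYCTH_40891 had 74.3 FPKM on canola, 9.35 on flax, 3.36 on oat and 1.71 on triticale. In these 3 genes flax was 4.90 to 9.45 times as high as triticale. The triticale values rest on only 4, 7 and 14 reads in the order listed, so these folds are imprecise.

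The same order was found for MYCTH_2308415, with 157 FPKM on canola, 22.4 on flax, 9.34 on oat and 3.58 on triticale. MYCTH_2312265 was flatter on the other straws, with 84.2 FPKM on canola, 9.04 on flax, 6.25 on oat and 5.43 on triticale. MYCTH_80427 had 632 FPKM on canola, 87.3 on flax, 81.4 on oat and 42.4 on triticale. The ratios of canola to flax for these 6 genes, from MYCTH_2019397 to MYCTH_80427 as listed, were 13.0, 10.4, 7.95, 7.04, 9.31 and 7.24.

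The most abundant member was MYCTH_87219, a model of 928 bases, with 3845 FPKM on canola (3800 to 3890), 1136 on triticale, 896 on oat and 401 on flax. It was already abundant on the other straws, and its ratio of canola to triticale was 3.38 (3.30 to 3.48). MYCTH_110532 had the same order of straws, with 1597 FPKM on canola, 505 on triticale, 348 on oat and 195 on flax, and a ratio of 3.16. In both genes flax was lowest, at less than each cereal straw.

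MYCTH_102322 followed in level, with 2470 FPKM on canola (2438 to 2503), 586 on triticale, 564 on oat and 559 on flax. The other 3 straws were within 1.05-fold of each other, and the ratio of canola to triticale was 4.22 (4.08 to 4.36). MYCTH_55717 had 1802 FPKM on canola, 262 on flax, 190 on oat and 97.4 on triticale, a ratio to flax of 6.89. MYCTH_52463 had 969 FPKM on canola, 149 on flax, 102 on oat and 64.1 on triticale, a ratio to flax of 6.52.

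The other members in the 10 highest levels had smaller ratios. MYCTH_2303011 had 1157 FPKM on canola, 553 on triticale, 522 on oat and 392 on flax, a ratio of 2.09. MYCTH_45669, a short model of 477 bases, had 956 FPKM on canola, 339 on flax, 332 on triticale and 221 on oat. MYCTH_2084695 had 908 FPKM on canola, 433 on triticale, 323 on flax and 266 on oat, also a ratio of 2.09. Both of these ratios were under 2 after median centring (1.83 for MYCTH_2303011 and 1.84 for MYCTH_2084695), upper-quartile scaling (1.89 for both) and removal of each library's trend with gene length (1.525 and 1.61). After removal of the trend with expression level they were higher, at 2.40 and 2.625. MYCTH_66783 stood apart in having oat as the next straw, with 877 FPKM on canola, 327 on oat, 121 on flax and 110 on triticale.

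**Figure D3:**
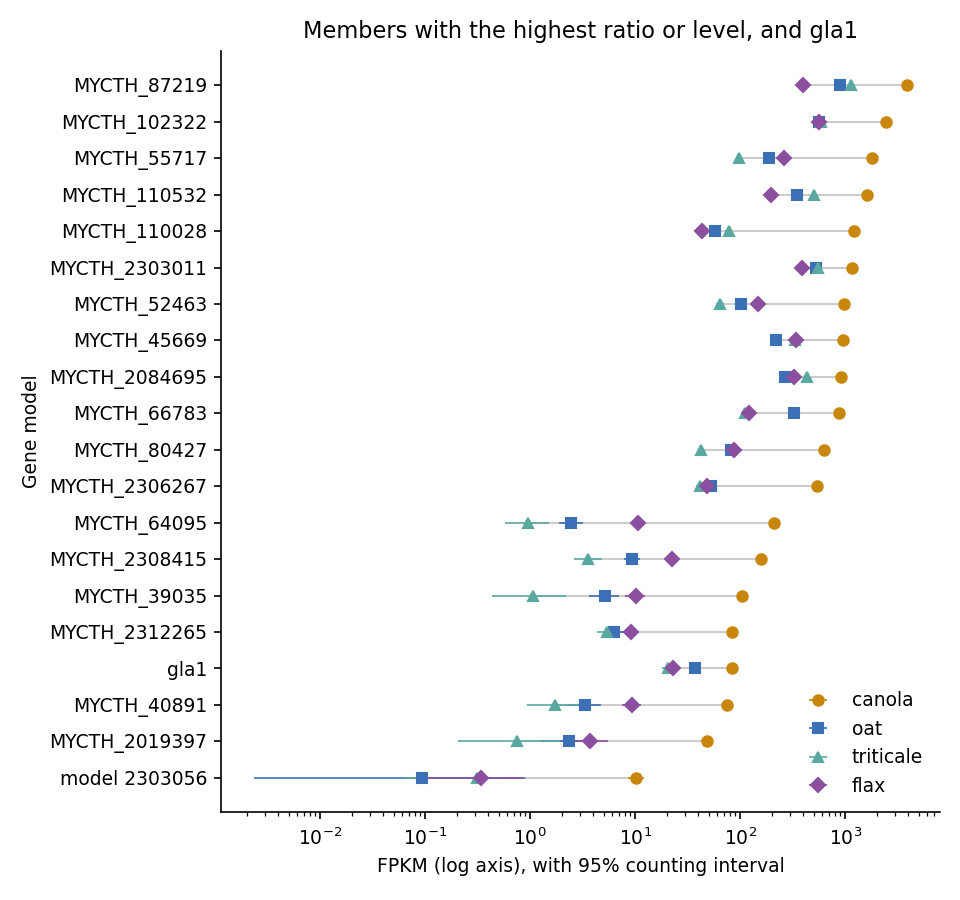
FPKM on a log axis by straw for the members with the highest ratio of canola to the next straw, those with the highest level on canola, and gla1, ordered by canola level. Bars are 95% counting intervals, wider than the symbols only for low values. Canola is the rightmost symbol in every row by the choice of genes, while the order of oat, triticale and flax changes from gene to gene.

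The rule fixed canola as the highest straw but not the order of the other 3. Flax was the next straw for 109 members (45.4%), oat for 91 (37.9%) and triticale for 40 (16.7%). Over all tested genes the highest of these 3 straws was flax in 44.0%, oat in 27.6% and triticale in 28.4%. Triticale was the lowest of the 4 straws for 141 members (58.8%), flax for 71 (29.6%) and oat for 28 (11.7%), against 49.3%, 30.6% and 20.2% of all tested genes for the lowest of these 3 straws. For 121 of the 240 members the next straw and the one after it did not differ beyond counting error. After median centring, which raises triticale, the next straw was flax for 99 of 229 genes, oat for 80 and triticale for 50. The shares of all tested genes after centring are not given, and those above are without it, so the centred counts cannot be set against them.

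Some members leaned to flax and others to the cereal straws. On the scale of FPKM + 1, flax was at least 2-fold above both cereal straws for 20 members (8.33%), against 4.48% of all tested genes. Both cereal straws were at least 2-fold above flax for 12 members (5.0%), against 3.39% of all tested genes. The 3 other straws lay within 2-fold of each other for 133 members (55.4%), against 67.5% of all tested genes.

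In ratios of FPKM between pairs of the other straws, 74 members (30.8%) were at least 2-fold higher on oat than on triticale, where 20.1% of all tested genes were, and 6 (2.50%) were higher on triticale, where 0.802% were. Flax was at least 2-fold above triticale for 81 members (33.8%; 25.6% of all tested genes), and triticale above flax for 22 (9.17%; 6.34%). Flax was at least 2-fold above oat for 26 members (10.8%; 7.01%), and oat above flax for 32 (13.3%; 6.74%). The share among members was above that of all tested genes in each of the 6 directions. The filter on the mean counts canola, so some members passed it through canola alone. Model 2303057, for example, had at most 0.238 FPKM on the other straws. Member medians on oat, triticale and flax were 12.2, 7.30 and 12.7 FPKM, against 21.5, 16.6 and 21.8 for all tested genes. Ratios of lower values vary more by counting, so these shares do not show whether members differ more among these straws. These pairs share libraries and are not independent. For triticale over oat the count rests on few genes. Among them MYCTH_106502, MYCTH_114667 and MYCTH_114666 lie close together in gene order. Model 2303056 had 3 reads on triticale and 1 on oat, and MYCTH_2067387 had 1 and 0. On the scale of FPKM + 1, 4 members (1.67%) were at least 2-fold higher on triticale than on oat, against 0.352% of all tested genes. With the trend with gene length removed, 44 of the 218 genes then passing the rule (20.2%) were at least 2-fold higher on oat than on triticale, against 11.1% of all tested genes. After removal of each library's trend with expression level they were 37 of 204 (18.1%), against 9.25%. Under that setting the share of passing genes was below that of all tested genes for triticale over oat (1.96% against 2.63%) and triticale over flax (9.80% against 9.84%).

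**Figure D4:**
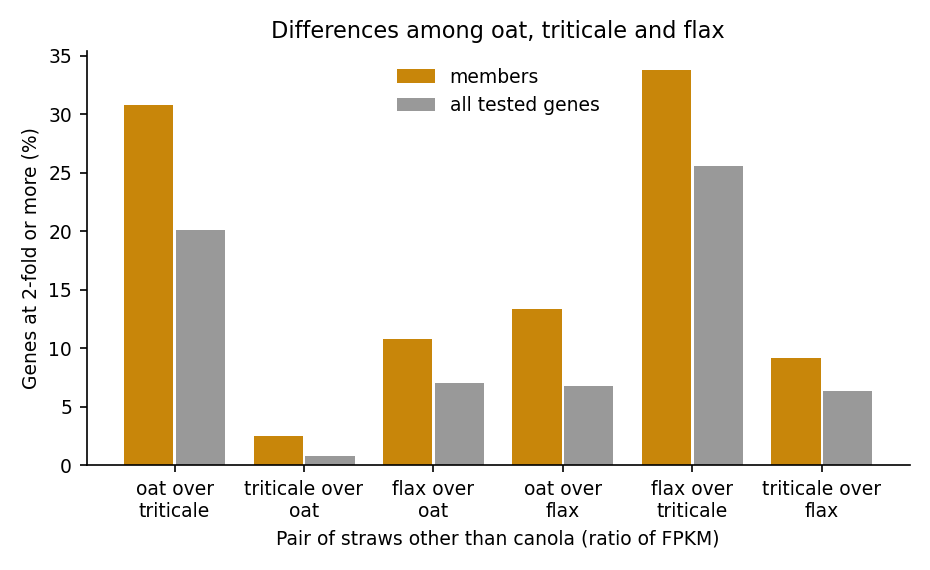
Percentage of genes at least 2-fold higher (ratio of FPKM) on one straw than on another, for the 240 members and for the 8230 tested genes, with 1 library per straw. The member share ranges from 2.50% (triticale over oat) to 33.8% (flax over triticale).

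Among members with at least 10 FPKM on the next straw, those that differed most among the other 3 straws were under 5 FPKM on the lowest. MYCTH_106502 had 45.9 FPKM on canola, 19.1 on triticale, 3.79 on oat and 0.774 on flax, so that triticale was 24.7 times as high as flax. MYCTH_2314555 had 278 FPKM on canola, 93.6 on oat, 86.6 on triticale and 4.50 on flax, so that oat was 20.8 times as high as flax. MYCTH_52713 went the other way, with 485 FPKM on canola, 79.5 on flax, 21.5 on oat and 4.89 on triticale, so that flax was 16.3 times as high as triticale. MYCTH_106502 and MYCTH_2314555 were thus lowest on flax, from 6 and 23 reads, and MYCTH_52713 on triticale, from 34 reads. The 24.7-fold difference is the least precise, as the counting interval of the flax value of MYCTH_106502 ran from 0.284 to 1.68 FPKM.

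The place of the members in gene order, which the rule did not use, was taken from the RefSeq table (assembly ASM22609v1), to which 238 of the 240 matched. Of these, 62 (26.1%) lay directly next to another member. Among the 413 tested genes directly beside a member, 62 (15.0%) were members themselves, while members were 2.90% of the 8210 tested genes with a place. The 351 tested neighbours that were not members had a median ratio of canola to the next straw of 0.957, and 159 of them (45.3%) were highest on canola. Over all 7972 tested non-members with a place the median was 0.812 and 27.2% were highest on canola. Of the 35 directly adjacent pairs of members, 1 had overlapping gene spans, and 6 were overlapping or at most 100 bases apart. The kit is not described as stranded, so reads of such close models may not be separated, and their part in the result was not tested.

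Counting members with at most 1 other gene between them as a run, 75 members fell into 31 runs, of which 26 were pairs, 1 held 3 members, 2 held 4 and 2 held 6. The 2 runs of 6 each contained 1 of the 2 longest members.

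The first run of 6 held 2 kinds of profile. MYCTH_78013, the longest member at 12611 bases, had 7.50 FPKM on canola from 754 reads, and 0.228 on oat, 0.232 on triticale and 0.130 on flax from 21, 19 and 13 reads. Its ratio of canola to triticale was 32.3 (20.6 to 54.0), the highest among members in FPKM. It was 6.90 on the scale of FPKM + 1, where MYCTH_64095 was highest at 18.1, and 1.71 with a pseudocount of 10. MYCTH_2303048 had 14.3 FPKM on canola, 2.54 on flax, 1.42 on oat and 1.195 on triticale. MYCTH_78019 had 12.9 FPKM on canola, 2.55 on flax, 2.48 on oat and 1.63 on triticale. These 3 genes were low on all of the 24 h straws.

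The other members of this run had intermediate values on triticale. MYCTH_114666 had 44.8 FPKM on canola, 15.2 on triticale, 3.49 on oat and 1.10 on flax, and MYCTH_114667 had 28.1, 11.6, 3.37 and 1.09 in the same order. MYCTH_106502, described above for its spread, followed the same order. The gene inside the run that was not a member, MYCTH_2133773, shared that order too, with 39.8 FPKM on canola, 23.3 on triticale, 5.59 on oat and 1.36 on flax, and missed the rule through its triticale value. After removal of each library's trend with expression level the ratio to the next straw was under 2 for MYCTH_106502 (1.53), MYCTH_114667 (1.54) and MYCTH_114666 (1.87), and without the triticale library it was 12.1, 8.34 and 12.8. The gene span of MYCTH_2133773 overlaps that of MYCTH_78019.

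Among the genes with a place in gene order, the profile ended abruptly outside the run. The places of the members without a locus tag, models 2303056 and 2303057, are not known. On one side MYCTH_2029812 had 7.97 FPKM on canola and 33.7 on flax, and beyond it MYCTH_2303046 had 8.59 and 40.7. On the other side MYCTH_2303060 had 6.54 FPKM on canola and 10.1 on triticale. None of these flanking genes was highest on canola.

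The second run of 6 was more uniform. It began with MYCTH_68164, a model of 12198 bases, at 12.5 FPKM on canola, 5.08 on flax, 3.49 on oat and 2.23 on triticale, a ratio of 2.47 (2.22 to 2.74). MYCTH_115957 was the most abundant, with 85.6 FPKM on canola, 18.0 on flax, 16.6 on triticale and 10.7 on oat, a ratio of 4.76 (4.05 to 5.62). MYCTH_2303702 had 25.9 FPKM on canola, 9.58 on flax, 3.997 on oat and 2.56 on triticale. That each of these was lower on every 24 h straw by a factor of at least 2 follows from the rule.

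The remaining members of the second run were of similar level. MYCTH_50128 had 22.5 FPKM on canola, 9.29 on flax, 5.86 on triticale and 5.67 on oat. MYCTH_2138881 had 15.3 FPKM on canola, 6.29 on triticale, 5.14 on flax and 2.72 on oat. MYCTH_2303707 had 15.2 FPKM on canola, 5.70 on flax, 3.26 on triticale and 2.58 on oat. Flax had the next highest value for 5 of the 6 members, with MYCTH_2138881 the exception. Its counting interval lay above that of the following straw only for MYCTH_68164 and MYCTH_2303702. For MYCTH_115957 the intervals were 15.45 to 20.8 on flax and 13.9 to 19.7 on triticale. The ratio of MYCTH_2138881, 2.43, was 1.91 after removal of the length trend and 1.54 after removal of the level trend.

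The profile of the second run went on past its end. The following genes, MYCTH_81364 (22.9 FPKM on canola and 11.6 on flax) and MYCTH_2303709 (19.9 and 9.87), had ratios of 1.98 and 2.01 in FPKM, and missed the rule on the scale of FPKM + 1. MYCTH_2303701, inside the run, had 6.08 FPKM on canola and 4.48 on flax. Before the run MYCTH_2303695 had 14.2 FPKM on canola and 51.5 on flax.

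Of the runs of 4, the first held genes of very different level. MYCTH_52160 had 123 FPKM on canola, 30.7 on flax, 6.73 on oat and 2.61 on triticale. MYCTH_52547, beside it, had 83.9 FPKM on canola, 35.1 on flax, 9.48 on oat and 5.14 on triticale. In both genes flax was over both cereal straws, by more than 2-fold. MYCTH_107976 had 50.4 FPKM on canola, 10.4 on flax, 8.03 on oat and 4.86 on triticale, and the abundant MYCTH_102322, described above, closed the run. MYCTH_2307549, which lies between MYCTH_52160 and MYCTH_107976 and was not a member, had 41.2 FPKM on canola and 29.7 on flax.

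The second run of 4 had no other gene between its members. MYCTH_2310317 had 124 FPKM on canola, 42.2 on flax, 24.3 on oat and 14.03 on triticale, a ratio of 2.94 (2.58 to 3.35). MYCTH_2310321 had 26.0 FPKM on canola, 10.3 on flax, 10.1 on oat and 6.04 on triticale. MYCTH_2310320 had 24.0 FPKM on canola, 9.54 on flax, 7.99 on oat and 6.07 on triticale. MYCTH_2129884, of 472 bases, had 9.83 FPKM on canola from 37 reads and 4.26 on flax from 16, so that its ratio of 2.31 had an interval of 1.25 to 4.44. Flax had the next highest value in all 4. Only for MYCTH_2310317 did its counting interval (37.6 to 47.1) lie above that of the following straw, oat (20.8 to 28.3). In the other members of this run the intervals of flax and the following straw overlapped.

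**Figure D5:**
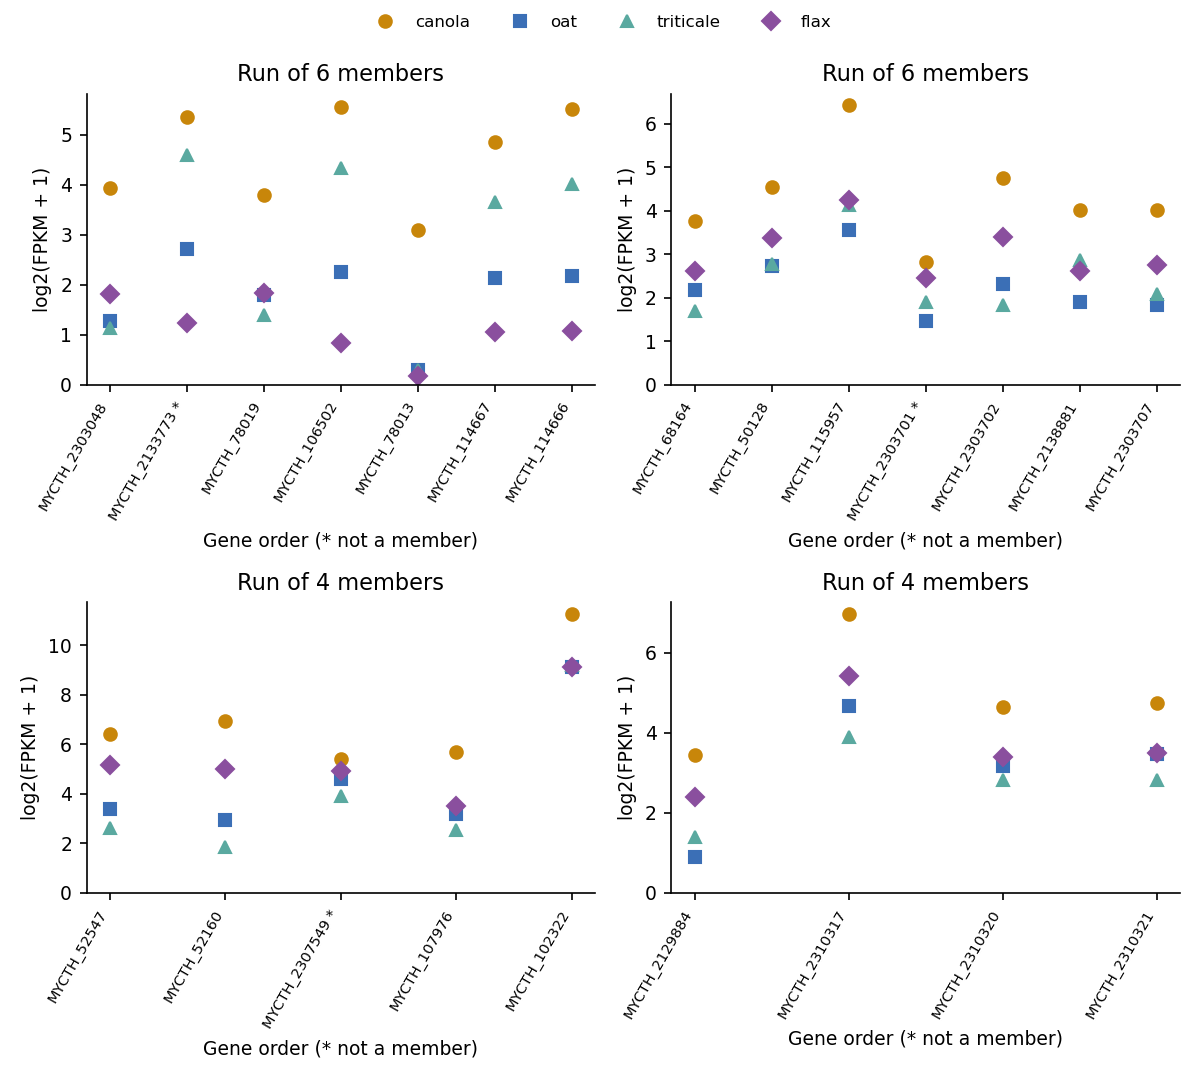
Level by straw, as log2(FPKM + 1), of the genes in the 4 longest runs of neighbouring members, placed in RefSeq gene order, with 1 library per straw. An asterisk marks a gene inside a run that is not a member. In the first run of 6 the triticale symbols are high for 4 genes and low for the other 3, while flax is the next straw for 5 of 6 members in the second. For MYCTH_115957, MYCTH_50128 and MYCTH_2303707 of these, the counting intervals of flax and triticale overlap.

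Several of the genes with the highest ratios or levels were also in pairs. MYCTH_52463 and MYCTH_2306267, both described above, were direct neighbours, at 969 and 540 FPKM on canola. MYCTH_40891 lay beside MYCTH_90594, which had 517 FPKM on canola, 102 on flax, 21.5 on oat and 20.2 on triticale. MYCTH_2308415 lay beside MYCTH_2308413, with 9.14 FPKM on canola, 2.73 on flax, 1.81 on oat and 0.119 on triticale. In each of these last 2 pairs flax was the next straw for both genes. For MYCTH_2308413, however, its counting interval (1.81 to 3.95) overlapped that of oat (1.05 to 2.89).

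In other pairs the partners differed more. MYCTH_64095 lay beside MYCTH_44230, which had 33.5 FPKM on canola, 8.83 on flax, 6.998 on triticale and 6.22 on oat, a ratio to flax of 3.79 against 19.7. The most abundant member, MYCTH_87219, lay beside MYCTH_106527, which had 30.9 FPKM on canola, 10.7 on flax, 9.09 on oat and 5.70 on triticale. MYCTH_80427 was separated by 1 gene from MYCTH_2305172, which had 30.5 FPKM on canola, 13.95 on oat, 12.8 on flax and 6.56 on triticale. Between them MYCTH_2305170 had 57.5 FPKM on canola and 36.9 on flax, and its span overlaps a neighbour.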

How the data were processed

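Poly(A) RNA from mycelium on 4 straws was measured in 1 library per straw (per the labels' protocols: Trizol, Illumina mRNA-Seq kit). The authors deposited 1 table of FPKM values and gene model lengths, per the file headers. No aligner, counter, build or annotation is named, so these are not given in the sources used. The products of FPKM and length (in units of 1000 bases) had a total of 1000000 per library, and 100% were within 0.001 of a whole multiple of the smallest, so reads per gene were recovered. Library totals were 6495371 to 7977329 reads.

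Single values have exact Poisson intervals and ratios exact Clopper-Pearson intervals (95%). With 1 library per straw no p-value is given. The members use FPKM + 1. The plan fixed beforehand described the same rule on FPKM without an added 1, which is given as an alternative added after seeing the data. Other ratios are of FPKM, as planned. The rule was also run on simulated reads with known changes on canola and equal means on the other straws. The simulation held no shift between libraries and no trend with length or level. It therefore checks only how the rule is applied and says nothing on the members found here.

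Of the 9110 models, 9087 matched the RefSeq table (ASM22609v1) by the number in the locus tag, and 9075 had the same length as its gene span. It gave 6 symbols and no product text, so 0 of 14 planned annotation lists could be evaluated, and no protein or promoter features were analysed here. It was used only for names and gene order.

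Named genes were those with a symbol, the 10 highest ratios (at least 10 FPKM on canola), the 10 highest levels, 3 on each side of the threshold, the longest runs (those of 4 tied, so 4 runs are given) and the 3 widest spreads among the other straws (at least 10 FPKM on the next straw). Neighbours of these genes, genes within runs, and the members of fewest reads or extreme length were added after their values were seen. The members and lists were chosen with earlier results of these data known. Python 3.11.15, pandas 2.3.3, scipy 1.17.1 and statsmodels 0.14.6 were used.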

Additional observations from a re-analysis of the deposited data

How the results depend on the processing

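The number of genes highest on canola, 240, was 116 with a pseudocount of 10, 35 at a 4-fold threshold, 158 when the counting interval of the ratio had to lie above 2, and 275 to 519 with 1 of the other straws left out. It was 301 without a pseudocount (added after seeing the data), 169 with a mean of at least 10 FPKM, 240 with no filter, 229 after median centring, 196 after upper-quartile scaling, and 218 and 204 with the trend with gene length or expression level removed. Of the 240, 226, 196, 214 and 200 remained under these 4 scalings.

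Their share of canola reads, 6.27%, was 6.42% without a pseudocount, 5.54% with one of 10, 6.10% with a mean of at least 10 FPKM, 2.11% at 4-fold, 5.78% by the counting interval, and 6.70% to 9.64% with 1 straw left out. The median ratio to the next straw, 2.74, was 2.56, 2.47, 2.70, 5.63 and 3.035 in the order of the first 5 of these, 2.75 to 2.88 with 1 straw left out, 2.75 after median centring, 2.72 after upper-quartile scaling, and 2.76 and 2.77 with the trend with gene length or expression level removed.

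With a pseudocount of 10 the next straw was flax for 62 genes, oat for 32 and triticale for 22. Of the 116 genes then passing, 6 were at least 2-fold apart for oat over triticale and 0 for triticale over oat. There were 5 for flax over oat, 5 for oat over flax, 25 for flax over triticale and 5 for triticale over flax. Shares of all tested genes with this pseudocount are not given. These counts and those of the next straw therefore cannot be set against them. For oat over triticale there were 44 of 218 genes with the trend with length removed and 37 of 204 with that with level removed. The members next to another member, 62 (26.1%), were 33 (19.5%) with a mean of at least 10 FPKM and 6 (18.2%) at 4-fold. Where fewer genes pass, fewer can be neighbours. With that mean 169 of 6006 tested genes passed and at 4-fold 35 of 8230, against 240 of 8230. These shares therefore do not show whether members were less often neighbours relative to their number.

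Of the 44 members named by the rule, 18 no longer passed with a pseudocount of 10, 9 with a mean of at least 10 FPKM, 4 after median centring, 6 after upper-quartile scaling, 5 with the trend with gene length removed, 6 with that with expression level removed, 10 by the counting interval and 26 at 4-fold. None was lost without a pseudocount, with no filter or with 1 of the other straws left out, where the rule can only keep or add genes. No paired analysis was possible because each straw has 1 library. Depth limits the low members: 19 had under 10 reads on triticale, 13 on flax and 8 on oat.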

Other observations

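Members of unusual length were listed after their values had been seen. The median length was 1714 bases for members and 1797 for all tested genes. Models of 5000 bases or more were 8 of the 240 members (3.33%), against 2.84% of all tested genes. MYCTH_2301462, of 5380 bases, was the most abundant of these, with 80.2 FPKM on canola, 38.6 on flax, 27.0 on oat and 9.93 on triticale. MYCTH_2311998, of 6552 bases, had 32.6 FPKM on canola, 8.94 on oat, 7.96 on flax and 4.65 on triticale. MYCTH_73236, of 5702 bases, had 16.2 FPKM on canola, 3.96 on oat, 3.37 on flax and 2.30 on triticale, a ratio to oat of 4.09 (3.45 to 4.87).

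The model numbered 2303057, of 7132 bases, was 1 of the 2 members without a locus tag. It had 6.56 FPKM on canola from 373 reads, and 0.173 on oat, 0.238 on triticale and 0.0705 on flax from 9, 11 and 4 reads. Its ratio to triticale was 27.6 (15.3 to 55.8). The values of this model, of model 2303056 and of MYCTH_78013 on the 24 h straws were at most 0.340 FPKM. MYCTH_103096, of 9491 bases, had 4.52 FPKM on canola, 1.47 on flax, 0.620 on oat and 0.552 on triticale.

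Models of 500 bases or less were 9 members (3.75%), against 2.90% of all tested genes. MYCTH_94523, of 455 bases, had 57.9 FPKM on canola, 18.6 on triticale, 12.03 on oat and 8.01 on flax, a ratio to triticale of 3.11 (2.30 to 4.26). MYCTH_98316, of 326 bases, had 29.2 FPKM on canola, 13.9 on oat, 12.3 on triticale and 1.16 on flax. MYCTH_2067387, of 150 bases, was the 1 member with 0 reads on a straw, on oat, and had 6 reads on canola, 2 on flax and 1 on triticale, too few to detect a difference.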
